A study of Mus musculus with 965 samples.

Results

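Day 6 embryoid bodies (EBs) of the homozygous Dnmt3b knockout clone 3B126 were compared with those of wild type (WT) cells by single-cell RNA-seq. The comparison took all 58 cells of plate C335 (3B126, day 6) and all 67 cells of plate C334 (WT, day 6), out of 965 cells from 14 combinations of clone and day. Both plates carry the label batch 2, which the series gives to WT and 3B126 at all days and to no other clone. EBs are aggregates that mouse embryonic stem cells (ESCs) form once leukemia inhibitory factor is withdrawn. Both lines are E14 ESCs. 3B126 is 1 of 2 Dnmt3b knockout clones of the study, and a pool of 50 EBs was dissociated for each clone and time before live single cells were sorted into wells. Each arm is thus 1 clone, 1 pool and 1 plate, so that the genotype, the clone, the culture and the plate cannot be told apart. There is no replicate of either arm and no test between them. Values are given with 95% intervals that cover the counting of reads or cells only, and genes are called by the size of their difference.

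Dnmt3b is a de novo DNA methyltransferase, an enzyme that adds methyl groups to cytosines of CG dinucleotides not methylated before. It is expressed in the epiblast, the pluripotent tissue from which all germ layers of the embryo arise. Epiblast cells become mesoderm and endoderm through the primitive streak, and mesoderm gives blood, vessels, heart and connective tissue. Cells that do not pass the streak become neural and surface ectoderm.

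The targeted gene was examined first. Dnmt3b (chromosome 2, 153649450 to 153687730, plus strand, GRCm38) was at 47.4 CPM (reads of the gene per 1000000 reads of a plate, on the scale described below) in the sum of the 3B126 cells (interval 44.9 to 50.1) and at 69.9 CPM in that of the WT cells (66.4 to 73.7). Single cells ran from 0 to 278 CPM with a median of 5.48 in 3B126, and from 0 to 546 CPM with a median of 15.3 in WT. The ranges overlapped over nearly their whole length, and a read was present in 31 of 58 and 43 of 67 cells. The difference in log2(CPM + 5), 3B126 minus WT, was -0.52. It was -0.92 by the mean over cells, taken from unscaled CPM, and -1.78 among cells with at most 30% mitochondrial reads. At day 3 the same clones stood at 31.1 CPM (3B126) and 334.2 CPM (WT). Counts cover the whole gene, with the deleted part not given in the sources used here. Dnmt3a, the other de novo enzyme, was at 17.95 CPM in 3B126 and 24.5 CPM in WT.

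The plates differed in depth more than in the number of genes seen. A 3B126 cell held 51222 to 2109306 reads with a median of 500240, and a WT cell 54899 to 909443 with a median of 196104. The sums were 33744614 and 20411616 reads. After thinning of every cell to 50000 reads, the median cell showed 3663 genes in 3B126 and 4323 in WT. Mitochondrial reads took a median of 29.04% and 28.6%, and 25 of 58 and 31 of 67 cells exceeded 30%. Reads of 6 genes with sequence like ribosomal RNA (Gm42418, Gm26917, Gm23935, Gm15564, Mir6236 and Lars2, chosen after their values were seen) took a median of 0.0976% of a 3B126 cell and 0.450% of a WT cell. 3B126 had no read of the Y-linked genes Eif2s3y, Ddx3y and Uty in any cell of day 6, whereas WT had 67.7, 14.1 and 7.67 CPM. Eif2s3y was also at 0 CPM in 3B126 at days 3 and 8, with 6.63 and 4.32 CPM in WT, so that the 2 lines differ in Y-linked reads as well as in Dnmt3b. Xist, the RNA of the inactive X chromosome, was at 138 CPM in 14 3B126 cells and 36.3 CPM in 15 WT cells. The part of depth, thinned gene number, ribosomal RNA and Y-linked reads in the differences below was not tested.

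As Dnmt3b acts on CG dinucleotides, the 250 bases upstream of a RefSeq start site are shown for 4 genes on which the results turn. Zfp982 and Pax6 were higher in 3B126, and Kdr and Crabp1 were lower. Capitals mark each CG, and the sequences read 5′ to 3′ on the strand of the gene.
Zfp982 upstream window: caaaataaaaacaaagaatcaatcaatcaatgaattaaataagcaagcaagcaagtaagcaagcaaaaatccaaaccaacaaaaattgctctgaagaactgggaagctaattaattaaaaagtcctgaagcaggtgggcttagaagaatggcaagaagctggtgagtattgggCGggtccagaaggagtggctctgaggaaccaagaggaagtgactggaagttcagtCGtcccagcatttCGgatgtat
Pax6 upstream window: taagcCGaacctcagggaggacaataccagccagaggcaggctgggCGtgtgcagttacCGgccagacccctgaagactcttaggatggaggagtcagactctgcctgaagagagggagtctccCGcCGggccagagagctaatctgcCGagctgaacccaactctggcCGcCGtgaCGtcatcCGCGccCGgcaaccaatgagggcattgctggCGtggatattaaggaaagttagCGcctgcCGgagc
Kdr upstream window: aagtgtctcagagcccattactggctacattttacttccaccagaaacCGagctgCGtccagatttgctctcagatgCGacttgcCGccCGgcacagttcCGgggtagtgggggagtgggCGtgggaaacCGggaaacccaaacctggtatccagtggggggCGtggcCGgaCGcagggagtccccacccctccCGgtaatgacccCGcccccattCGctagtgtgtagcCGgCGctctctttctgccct
Crabp1 upstream window: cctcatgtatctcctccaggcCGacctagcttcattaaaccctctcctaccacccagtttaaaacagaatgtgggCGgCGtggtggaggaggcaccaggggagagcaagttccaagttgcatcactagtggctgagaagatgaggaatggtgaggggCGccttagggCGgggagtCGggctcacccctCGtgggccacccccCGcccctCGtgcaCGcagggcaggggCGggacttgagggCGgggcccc
The windows lie at chr4:147492167-147492416 (plus strand), chr2:105668646-105668895 (plus), chr5:75978456-75978705 (minus) and chr9:54764498-54764747 (plus) of GRCm38.p6. They hold 3, 15, 16 and 12 CG, counts that 70.97%, 27.3%, 25.4% and 33.5% of the 32851 windows of the RefSeq table reach. Zfp982 has 3 start sites in that table and Pax6 has 2, of which the one nearest to the start of the gene as annotated by GENCODE is shown, for all 4 genes within 4 bases of it. A comparison of CG number between groups of genes was void, because too few genes, 78.55% of those assessed, and 67.4% and 72.4% of those past 4-fold higher and lower, had a window in the table. Methylation was not measured in these cells.

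WT EBs held cells with markers of mesoderm and endoderm, and 3B126 EBs held 1. Cells were assigned by lists of 8 markers, a cell counting as a class when at least 3 of them had a read among its 50000. Of the WT cells 29 of 67 (43.3%, exact binomial interval 31.2 to 55.96) fell in at least 1 of the endothelial, blood, mesenchyme, cardiac, endoderm or visceral endoderm classes. Of the 3B126 cells 1 of 58 did (1.72%, 0.0436 to 9.24). The intervals do not overlap, and they cover the sampling of cells only.

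The endothelial-like class, cells of vessel walls, held 8 of 67 WT cells (11.9%, 5.30 to 22.2) and 0 of 58 3B126 cells (exact interval 0 to 6.16). A limit of 3 cells of 58 would be a share of 5.17%. The blood-like class held 3 WT cells and 0 3B126 cells. Embryonic globins were at 1561 CPM (Hbb-bh1) and 1241 CPM (Hba-x) in WT and without a read in 3B126, and 99.85% of the WT reads of the blood markers came from those 3 cells. The mesenchyme-like class, of connective tissue, held 12 WT cells (17.9%, 9.61 to 29.2) and 1 3B126 cell (1.72%). The cardiac list was met by 3 WT cells and no 3B126 cell. Of its 8 markers Nkx2-5, Myh6 and Myh7 had no read in WT, and that class therefore rests on the remaining genes.

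The endoderm-like class held 8 WT cells (11.9%) and 0 3B126 cells. Sox17, Foxa1, Foxa2, Gata4 and Gata6, transcription factors of endoderm, had no read in any 3B126 cell. In WT they were at 18.2, 11.01, 15.6, 1.97 and 29.6 CPM. Trh, the hormone precursor on the same list, was present in 31 3B126 and 28 WT cells after thinning and so marked no class in these plates. The visceral endoderm list was met by 2 WT cells and no 3B126 cell. The primitive streak list was met by 6 WT cells (8.96%) and 1 3B126 cell (1.72%). T (brachyury), its best known member, was seen after thinning in 6 cells of each plate, while Mixl1, a homeobox gene of the streak, was seen in 8 WT cells and no 3B126 cell. Macrophage and trophoblast lists were met by no cell of either plate.

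**Figure D1:**
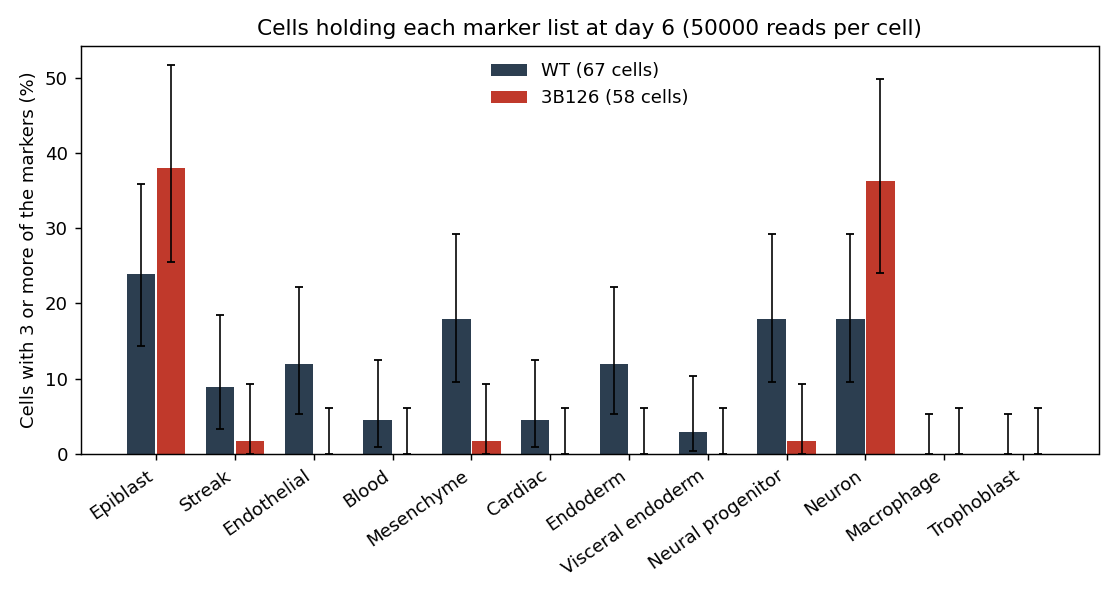
Share of cells (y axis, %) that hold at least 3 markers of each list (x axis) at day 6 after thinning to 50000 reads, for WT (dark) and 3B126 (red), with exact 95% binomial intervals that cover the sampling of cells only. Endothelial, mesenchyme and endoderm stand at 11.9%, 17.9% and 11.9% in WT and at 0, 1.72% and 0 in 3B126, while epiblast and neuron lists are higher in 3B126.

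The 1 3B126 cell of the mesenchyme class held 743215 reads. It had 139 reads of Pdgfra, a growth factor receptor of mesoderm, which were 59.9% of all Pdgfra reads of the plate. It also had 112 reads of Prrx1, a homeobox gene of limb and head mesenchyme, 32 of the cadherin Cdh11 and 7 of the collagen gene Col1a2. No read of Pou5f1, Nanog, Sox1 or Tubb3 was among its thinned reads.

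Cells with epiblast markers were present in both plates. The epiblast-like class held 22 of 58 3B126 cells (37.9%, 25.5 to 51.6) and 16 of 67 WT cells (23.9%, 14.3 to 35.9), with overlapping intervals. Nanog, a pluripotency factor, was at 73.3 CPM in 3B126 and 30.3 CPM in WT, and was seen in 41 and 26 cells after thinning. Pou5f1, which encodes Oct4, was at 19.3 and 22.8 CPM and was seen in 22 cells of each plate. The pluripotency genes thus did not move as one.

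Neural genes differed by gene. Sox1, the earliest marker of neural plate, was at 48.1 CPM in 3B126 and 16.2 CPM in WT. Single 3B126 cells ran from 0 to 281 CPM with a median of 12.3, and WT cells from 0 to 242 CPM with a median of 0. Pax6, a transcription factor of forebrain and eye, was at 67.5 CPM (64.4 to 70.7) in 3B126 and 11.75 CPM (10.3 to 13.3) in WT. It was seen after thinning in 18 of 58 and 10 of 67 cells. Other members of the same list were lower. Pax3, of dorsal neural tube, was at 1.58 CPM in 3B126 and 11.6 CPM in WT, Fabp7, of radial glia, at 5.24 and 13.96 CPM and Hes5, a Notch target, at 0.792 and 2.703 CPM. As a result the class, which needs 3 markers, held 1 3B126 cell (1.72%) and 12 WT cells (17.9%, 9.61 to 29.2), although with 2 markers 29.3% of 3B126 and 26.9% of WT cells would count.

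The cells with Sox1 and those with Pax6 overlapped in part. After thinning, 26 3B126 cells had Sox1, 18 had Pax6 and 6 had both, against 17, 10 and 7 WT cells. In 3B126, Sox1 was seen in 10 of the 22 epiblast-class cells and in 16 of the 36 others. Pax6 was seen in 3 of the 22 and 15 of the 36, and both genes together in 0 and 6. In WT, Pax6 was seen in 5 of 16 epiblast-class cells and 5 of 51 others. Lhx2 was seen in 6 of 22 and 13 of 36 3B126 cells, against 1 of 16 and 0 of 51 in WT.

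The neuron list was met by 21 3B126 cells (36.2%, 23.99 to 49.9) and 12 WT cells (17.9%), but it did not mark neurons here. Stmn2 was seen after thinning in 55 and 52 cells and Tubb3 in 47 and 35, so that 1 more marker sufficed. Dcx and Neurog2, of newborn neurons, had no read in 3B126, and 12 of 73 3B126 and 16 of 74 WT cells of day 3 met the list too. The neurofilament genes Nefl and Nefm were seen in 16 and 11 3B126 cells and in 9 and 6 WT cells. The cells are therefore not called neurons. No class held 21 of 58 3B126 cells and 10 of 67 WT cells. Of those 21, 11 had a read of Nanog, 10 of Sox1, 9 of Pax6 and 9 of Lhx2, against 4, 2, 0 and 0 of the 10 in WT.

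**Figure D2:**
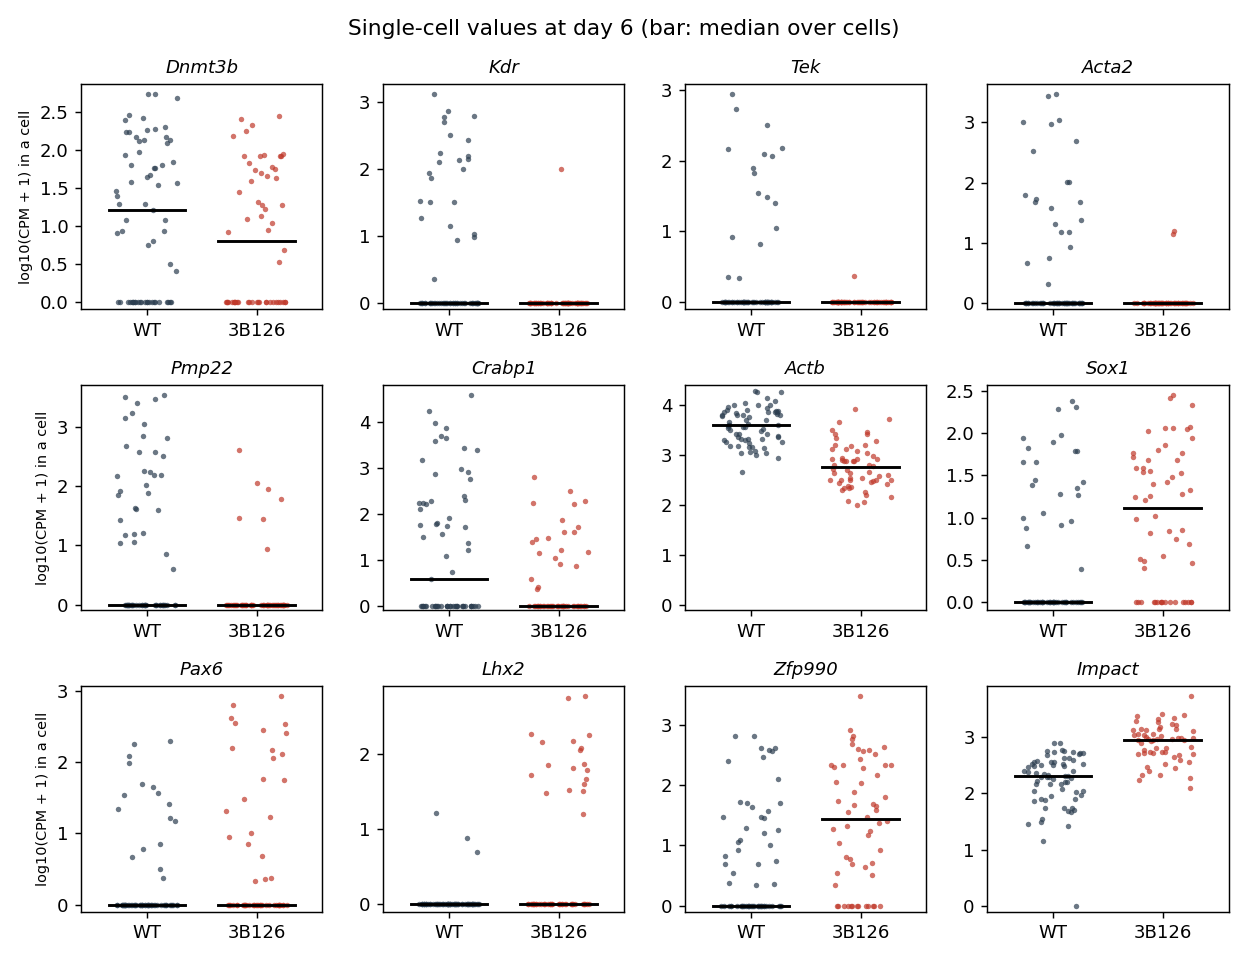
Expression of 12 genes in each single cell at day 6 (y axis, log10 of CPM + 1, unscaled CPM of the cell) for 67 WT and 58 3B126 cells (x axis), with a bar at the median over cells. Kdr, Tek and Acta2 had a read in 24, 17 and 22 WT cells and in 1, 1 and 2 3B126 cells, Lhx2 in 3 and 19, and Actb and Impact were shifted over most cells of the plates.

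Levels were next compared gene by gene over the sums of all cells of a plate. Sums were scaled by the trimmed mean of M values (TMM), and the difference is that of log2(CPM + 5), 3B126 minus WT. A gene was assessed where it reached 10 CPM and was seen in 10 cells of the same plate, which 7372 genes did. In such sums, fewer cells of a type and less RNA per cell cannot be told apart. A gene below 10 CPM in 1 plate was assessed through the other alone, and could be called in 1 direction only. The median difference was 0.13, and 141 genes (1.91%) were at least 4-fold higher and 87 (1.18%) at least 4-fold lower in 3B126. Past 2-fold, 1188 (16.1%) were higher and 652 (8.84%) lower. With unscaled CPM the median was -0.19 and the counts were 68 and 113, so that the balance between the directions depends on the scaling. Of the 141 and 87 genes, 79 and 54 were also seen in at least 15 thinned cells of the higher plate and past 2-fold by the mean over cells, which is of unscaled CPM. The 12 largest of each direction with a gene name of their own are described here.

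Several of the lower genes belong to vessels, blood and contractile or epithelial cells. Kdr (chromosome 5, 75932827 to 75978458, minus strand), the main receptor for vascular endothelial growth factor, was at 3.47 CPM in 3B126 (2.80 to 4.25) and 67.97 CPM in WT (64.4 to 71.65), 19.6-fold lower. All its 3B126 reads came from 1 cell of 98.7 CPM, while 24 WT cells held up to 1312 CPM. Tal1, a transcription factor of early blood, had no read in 3B126 and 44.1 CPM in 17 WT cells, at least 390-fold lower against a floor of 3 reads in the plate. Acta2 (chromosome 19, 34241090 to 34255590, minus strand), smooth muscle actin, was at 0.226 CPM in 2 cells and 134 CPM in 22 cells. The keratins of simple epithelia Krt18 and Krt8 were at 2.64 and 1.66 CPM in 3B126 and at 119 and 63.75 CPM in WT. Their highest cells reached 33.02 CPM each in 3B126, and 1501 and 470 CPM in WT. Of the 75-base words of the Krt8 transcripts 23.5% occur in another gene, and Krt8 is therefore less certain.

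The largest difference on the log2(CPM + 5) scale among the lower named genes was that of Crabp1 (chromosome 9, 54764748 to 54773110, plus strand), a cytoplasmic binding protein of retinoic acid, at 25.9 CPM in 3B126 (24.04 to 27.95) and 934 CPM in WT (921 to 947.5). It was 36.01-fold lower, and with a pseudocount of 1 Acta2, Eif2s3y and Tal1 differed more. The highest 3B126 cell stood at 633 CPM and the highest WT cell at 37523 CPM, and a read was present in 21 and 34 cells. The cells overlapped below 633 CPM. Pmp22, a membrane protein of myelin and growth arrest, was at 16.1 and 328 CPM, with 63.5% of the 3B126 reads in 1 cell. Phlda2, an imprinted growth regulator, was at 5.77 and 87.6 CPM. The protocadherin Pcdh7, the channel subunit Lrrc8c and the transporter-like gene Slc35g2 were at 1.73, 2.56 and 0.302 CPM in 3B126 and at 53.1, 64.3 and 38.9 CPM in WT. Eif2s3y completes the 12 genes.

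Among the higher genes were regulators of forebrain and eye, a neurofilament gene and zinc finger genes. Lhx2 (chromosome 2, 38339281 to 38369733, plus strand), a homeobox gene of forebrain and eye, was at 51.3 CPM in 3B126 (48.6 to 54.1) and 0.246 CPM in WT (0.0798 to 0.574, from 5 reads). It was seen in 19 3B126 cells up to 589 CPM and in 3 WT cells up to 15.3 CPM. Nefl (chromosome 14, 68083863 to 68089095, plus strand), the light neurofilament chain, was at 70.8 CPM in 17 cells and 3.20 CPM in 13 cells, and 31.3% of its words occur in another gene. Ror1, a receptor for Wnt5a, was at 97.2 and 5.41 CPM and the zinc finger gene Zbtb26 at 78.5 and 3.93 CPM, but 62.5% and 63.9% of their 3B126 reads came from 1 cell each.

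The remaining higher genes varied in the number of cells that showed them. Trim2, a ubiquitin ligase of neurons, was at 116 CPM in 41 3B126 cells and 12.1 CPM in 29 WT cells, with medians over cells of 20.3 and 0 CPM. Actr3b, related to the Arp2/3 actin complex, was at 57.8 CPM in 29 cells and 2.31 CPM in 16 cells. The cyclin Ccnj was at 65.7 and 3.15 CPM and Nkrf, a repressor of NF-kappaB targets, at 84.65 and 7.91 CPM. Gprasp1, a sorting protein of receptors, was at 231 and 27.2 CPM, but was seen in fewer 3B126 cells (31) than WT cells (39). Its highest cell stood at 4194 CPM in 3B126 and 278 CPM in WT. Mup6, of the major urinary proteins, was at 307.4 and 29.9 CPM, and the zinc finger genes Zfp873 and Zfp866 were at 368.5 and 45.7 CPM and at 74.5 and 6.19 CPM. Zfp873 was seen in 21 3B126 and 23 WT cells, with 34.3% of its 3B126 reads in 1 cell.

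Some differences ran through nearly all cells. Actb, cytoplasmic actin, was at 852 CPM in 3B126 (841 to 863) and 3918 CPM in WT (3891 to 3946), 4.6-fold lower. Cells ran from 97.4 to 8341 CPM with a median of 566 in 3B126 and from 466 to 19181 CPM with a median of 3912 in WT, so that the plates overlapped only in part. The 12 housekeeping genes had a median difference of -0.10, and Actb was the 1 past 4-fold. Gapdh stood at 733 and 1659 CPM. Among 16 assessed genes of hypoxia and glycolysis, 3 were above 0 and none past 4-fold, with a median of -0.63.

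The gene lists give the same comparison by pathway and cell type. Of 37 lists, 21 had a member past 4-fold, 13 had assessed members but none past it, and 3 (macrophage, cardiac muscle, early two-cell genes) had no assessed member. In the endothelium list 9 of 11 assessed genes were lower, beside 1.18% of all genes, and none higher. The median was -2.72 beside 0.13 over all genes. Besides Kdr, its most abundant members were Egfl7, secreted by endothelium (6.64 and 53.1 CPM), Tek, the angiopoietin receptor (0.0377 CPM from 1 read, and 51.3 CPM), and Ramp2, of the adrenomedullin receptor (2.83 and 46.4 CPM). Tek was seen in 17 WT cells. Only 11 of the 30 list genes reached the level of assessment, as most were low in both plates.

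Mesenchyme genes were lower in part. Of 10 assessed, 2 were lower and 1 higher past 4-fold, beside 1.18% and 1.91% of all genes, with a median of -1.54. Vimentin (Vim) stood at 242 and 400 CPM, fibronectin (Fn1) at 57.2 and 240 CPM, Acta2 as above and the matrix protein Sparc at 50.1 and 133 CPM. Fn1 was seen in 48 and 64 cells. The higher gene was Prrx1, at 28.4 CPM in 12 cells and 3.24 CPM in 7. Most of its 3B126 reads came from 1 cell with 517 reads, as 112 reads of another cell were 14.9% of the plate's. In the endoderm list 2 of 5 assessed genes, Gata6 and Sox17, were lower, beside 1.18% of all genes. Neither had a read in 3B126, so that both were assessed through WT alone. Gata6 had no read in 3B126 and 29.6 CPM in 18 WT cells, at least 262-fold lower. Lists of streak and nascent mesoderm, later mesoderm factors, neural crest, Wnt, Bmp and Fgf signalling and trophoblast had 1 lower gene each and no higher gene. In that order 2, 3, 6, 9, 8, 9 and 1 genes were assessed, and 1.18% of all genes were lower.

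In the Bmp list 1 of 8 assessed genes was past 4-fold lower, beside 1.18% of all genes, namely Bmp4, a ligand that induces mesoderm. None of the 8 was above 0, and the median was -1.14. The inhibitors of differentiation Id2, Id3 and Id1 stood at 280, 58.97 and 30.5 CPM in 3B126 and at 380, 211 and 67.5 CPM in WT. In the retinoic acid list 2 of 4 assessed genes were lower, beside 1.18% of all genes. These were Crabp1 and Cyp26a1, which degrades retinoic acid (2.87 and 47.6 CPM). Crabp2 was at 62.2 and 103 CPM and Rdh10, which makes retinal, at 38.99 and 96.6 CPM. In the Wnt list Lgr5, a receptor of R-spondins, had no read in 3B126 and 52.4 CPM in 11 WT cells, with 65.8% of the WT reads in 1 cell.

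Of 10 assessed genes of primed epiblast, 3 were past 4-fold higher (Cdh1, Zic5 and Lefty2) and none lower, beside 1.91% and 1.18% of all genes. The median was 1.48. Cdh1 (E-cadherin) was at 294 and 57.65 CPM but in 13 and 22 cells, follistatin (Fst) at 252 and 63.35 CPM, Sall2 at 212 and 87.04 CPM and Otx2, of epiblast and forebrain, at 209 and 67.3 CPM. Otx2 was seen in 46 3B126 and 29 WT cells with medians of 105 and 0 CPM. By the mean over cells, the list median was 0.82 and that of all genes -0.21. Core pluripotency genes had a median of 0.84 with none of 10 past 4-fold, and a median of -0.05 by the mean over cells. The neural progenitor list had 2 of 12 assessed genes higher, beside 1.91% of all genes, and a median of 0.61. The 2 genes were Pax6 and Zic5, a zinc finger gene of neural plate (92.7 and 16.5 CPM). Sox2, shared by pluripotent and neural cells, was at 79.9 CPM in 43 3B126 cells and 42.2 CPM in 28 WT cells. Gli3, of hedgehog signalling, was at 86.8 and 33.8 CPM.

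Cell cycle genes held no gene past 4-fold. The median was 0.76 over 19 genes of G2 and mitosis and 0.14 over 17 genes of S phase. Cenpf and Top2a, of the mitotic chromosome, stood at 925 and 588 CPM in 3B126 and at 313.3 and 289 CPM in WT, while Cdc20 stood at 42.6 and 45.5 CPM. The mitosis median was 0.09 by the mean over cells, where that of all genes was -0.21. Methylation genes were not past 4-fold in 9 of 9 cases. Uhrf1, which recruits the maintenance enzyme, was at 125 and 58.9 CPM, that enzyme, Dnmt1, at 88.8 and 85.3 CPM, and Tet1, which oxidises methylcytosine, at 182 and 77.2 CPM.

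The remaining lists held few assessed genes. Their counts stand beside 1.91% of all genes higher and 1.18% lower. In the Nodal list Lefty2 was higher, the only call among 6 genes, and in the neuron list Nefl was, among 9. Krt18 and Krt8 made up the 2 lower of 3 surface ectoderm genes, and with Snai2 the 3 lower of 11 genes of the switch from epithelium to mesenchyme, where Cdh1 was higher. Snai2, a repressor of epithelial genes, was at 0.453 CPM in 1 cell and 24.3 CPM in 11 cells. Of 3 assessed germline genes, 1 was higher, the recombinase gene Dmc1 with 23.15 and 1.28 CPM, while Ddx4 stood at 28.5 and 4.37 CPM. No gene was past 4-fold among those of naive pluripotency, visceral endoderm, blood, Notch signalling, Hox genes, cell cycle inhibitors and p53 targets, immediate early and stress genes and mitochondrially encoded genes. In the visceral endoderm, blood and Hox lists 1 gene each was assessed, as genes with reads in fewer than 10 cells of a plate were left out, the globins among them.

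**Figure D3:**
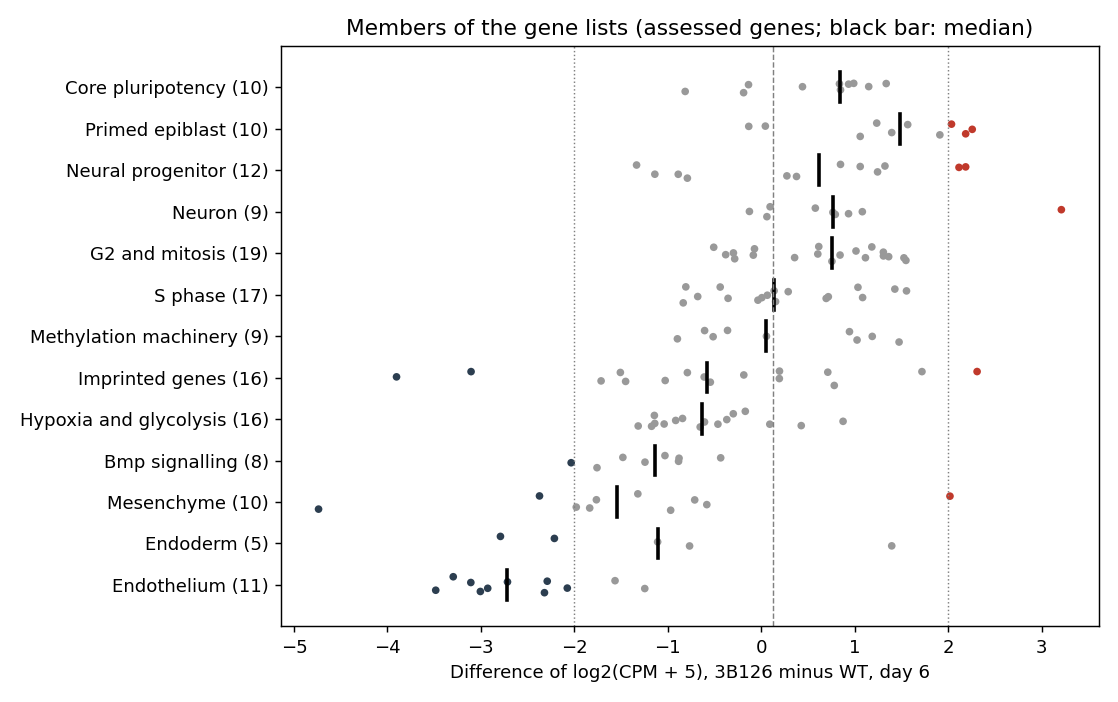
Difference of log2(CPM + 5), 3B126 minus WT (x axis), of the assessed members of 13 gene lists (y axis, number of assessed genes in brackets). Points are genes, coloured past 4-fold (dotted lines), black bars are list medians and the dashed line is the median of all 7372 genes, and the endothelium list lies at the left with a median of -2.72.

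Imprinted genes, expressed from 1 parental copy that methylation marks, numbered 16 assessed, of which 1 was higher and 2 lower past 4-fold, beside 1.91% and 1.18% of all genes. Impact (chromosome 18, 12955852 to 12992950, plus strand), a regulator of protein synthesis expressed from the paternal copy, was at 1388 CPM in 3B126 (1374 to 1402) and 276 CPM in WT (269 to 283), 5.03-fold higher. All 58 3B126 cells held it, from 125 to 5232 CPM with a median of 900, and WT cells ran from 0 to 769 CPM with a median of 203. Snrpn was at 353 and 104 CPM and Peg3 at 723 and 1987 CPM. Peg10 had no read in 3B126 and 69.7 CPM in 11 WT cells. Impact was also higher in 3B126 than in WT on the other days, with 6558 and 2270 CPM at day 3 and 821 and 308 CPM at day 8. In the other plates of day 6 it stood at 384 CPM (3B77), 662 CPM (3A2) and 202 CPM (3A38).

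Genes of the Zfp series, which mostly encode zinc finger proteins, were frequent among the higher genes. This group was chosen after its values were seen. Of 402 Zfp genes measured, 213 were assessed, and 25 (11.7%) were higher and 4 (1.88%) lower, beside 1.91% and 1.18% of all genes. Their median difference was 0.73, and 0.46 with unscaled CPM, where the same 7372 genes stood at -0.16. On chromosome 4 between 145510759 and 147848366, 17 such genes lie together. All 11 assessed there were above 0, 7 were past 4-fold and the median was 2.22. Zfp980, Zfp534 and Zfp982 were below 10 CPM in WT (0.295, 1.23 and 2.51). They were assessed through 3B126 alone and could not have been called lower. The same held for others of the 25, such as Zfp456 and Zfp972 (1.28 and 0.934 CPM in WT). Zfp990 was at 318 CPM in 45 3B126 cells and 58.6 CPM in 32 WT cells. Zfp992 was at 117 CPM in 51 cells and 21.04 CPM in 44 cells. Zfp982 was at 109 CPM in 18 cells and 2.51 CPM in 9 cells.

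Copies in this cluster resemble each other. Of the 75-base words of their transcripts, the length of a read, the share that also occurs in another gene was 56.1% for Zfp980, 53.04% for Zfp534, 40.9% for Zfp984 and 34.5% for Zfp992, but 11.6% for Zfp990, 4.93% for Zfp982 and 4.36% for Zfp985. Reads with several positions were left out by the authors, so that the first 4 levels are uncertain. Single cells also weighed on the sums. 1 cell gave 45.8% of the Zfp990 reads and 26.8% of the Zfp982 reads of 3B126.

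The sum of the 17 genes was at 4292, 1115 and 348 CPM in 3B126 at days 3, 6 and 8 and at 2578, 229 and 339 CPM in WT. As a ratio 3B126 stood farthest above WT at day 6, and in CPM at day 3. In the plates of the other batches the day 6 sum was 329 CPM (3B77), 1907 CPM (3A2) and 38.5 CPM (3A38), a spread wider than the gap between 3B126 and WT. The other Dnmt3b knockout clone lay between WT and 3B126, nearer to WT.

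**Figure D4:**
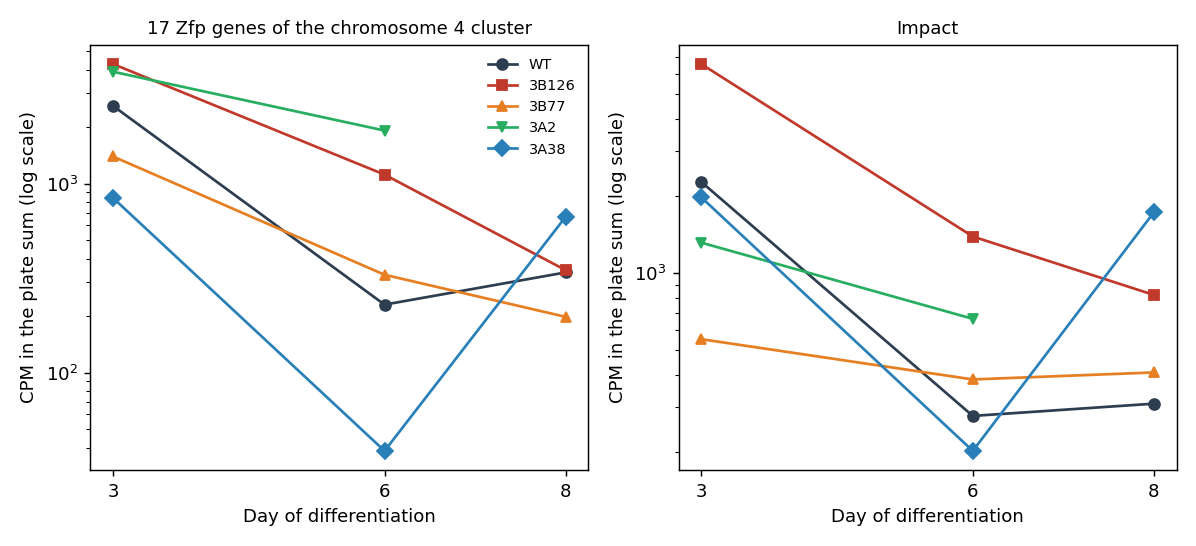
Summed CPM of the 17 Zfp genes of the chromosome 4 cluster (left) and CPM of Impact (right), both on log scales (y axes), at days 3, 6 and 8 (x axes), 1 point for each clone and day without error bars. At day 6 the cluster stands at 1115 CPM in 3B126 and 229 CPM in WT, and Impact at 1388 and 276 CPM. 3B77, 3A2 and 3A38 come from other batches.

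Genes that the study had linked to Dnmt3b-dependent methylation near promoters or enhancers were counted next. That list was drawn up on bulk cultures that included the clone 3B126, and a higher level in the knockout was itself a criterion for it, so that its count of higher genes is not independent evidence. Of the 601 genes in the copy of the list used here, 585 were in the table and 125 were assessed. Past 4-fold, 6 (4.8%) were higher and 3 (2.4%) lower, beside 1.91% and 1.18% of all genes, and the median was 0.09, where that of all genes was 0.13. The higher genes were Aard, Adam23, Zic5, Dmc1, Cpe and Lefty2 and the lower ones Ctsc, Dsp and Ahnak, all named here because they passed it. Lefty2, a Nodal antagonist, was at 81.3 and 16.1 CPM in 10 and 15 cells. Dsp (desmoplakin, of cell junctions) was at 36.8 and 262 CPM. Among its early, mid and late members, 2 of 32, 3 of 39 and 1 of 54 were higher, and 1, 2 and 0 lower.

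To compare cells that share epiblast markers, the sums were made again over the epiblast class, 22 cells of 3B126 with 14241461 reads and 16 of WT with 3316332. The class is not 1 kind of cell. Of the 22 cells 9 also met the neuron list, and of the 16 cells 4 met the neural progenitor list, 3 the neuron list and 2 a mesoderm or endoderm list. At the limit of 3 markers stood 6 of 22 and 1 of 16 cells. The class markers were left out. To be assessed here, a gene had to be seen in 5 class cells of the same plate, a lower limit than over all cells. Of 7078 assessed genes 391 (5.52%) were higher and 150 (2.12%) lower past 4-fold. These shares were larger than over all cells. They rest on fewer cells and on the lower limit, so they cannot be compared directly with those over all cells. A median class cell held 423346 reads in 3B126 and 143885 in WT, and 4002 and 4884 genes after thinning. Of the genes higher over all cells 51.1% were higher here, and 18.41% of the genes higher here were higher over all cells. Of the genes lower over all cells 14.9% were lower here, which made 8.67% of the genes lower here, and 30 of the 87 reached the level of assessment. Of the 141 higher genes 127 reached it. Among those assessed, 72 of 127 were higher here and 13 of 30 lower. The class cells are part of the sums over all cells, so that the overlap is not an independent comparison.

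Within the class Crabp1 was at 4.77 CPM in 3B126 and 242 CPM in WT, in 7 of 22 and 9 of 16 cells. Pmp22 was at 1.05 and 62.1 CPM in 1 and 6 cells. Kdr and Tal1 were each seen in 1 WT class cell and in no 3B126 class cell, and were not assessed. Actr3b was at 67.1 and 2.62 CPM, Trim2 at 130.5 and 12.8 CPM and Zfp982 at 221 and 11.5 CPM. Sox1 was at 33.96 and 28.3 CPM, a difference of 0.23, and Otx2 at 148 and 219.7 CPM, a difference of -0.56, where over all cells both were above 1. Impact was at 989 and 253 CPM, in all 22 and all 16 cells. Actb stood at 1047 and 3809 CPM. Zfp genes numbered 38 higher and 5 lower of 190, beside 5.52% and 2.12% of all genes assessed in the class.

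The other plates of day 6 belong to other batches, and their values are set beside these without a test. Acta2 was at 0.335 CPM in 3B77, 0.213 CPM in 3A2 and 135 CPM in 3A38. Kdr was at 0.872, 23.3 and 61.7 CPM and Tal1 at 0, 76.96 and 145 CPM. The endothelial class held 0 of 71, 5 of 80 and 11 of 72 cells, and the mesenchyme class 1, 1 and 19. The other Dnmt3b knockout clone thus also held few such cells at day 6, but not at day 8. Its Sox1 level was 16.3 CPM, that of Pax6 6.001 CPM and that of Lhx2 9.32 CPM, beside 16.2, 11.75 and 0.246 CPM in WT. Its neural progenitor class held 14 of 71 cells. At day 8 the mesenchyme class of 3B77 held 23 of 40 cells, the blood class 7 and the endothelial class 4.

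By day 8 some of the differences were smaller. WT of day 8 is the sum of 2 plates of 21 and 68 cells, which differed in their classes. The mesenchyme class held 12 of the 21 and 8 of the 68 cells, and the blood class 4 and 1. Crabp1 stood at 6217 CPM in 3B126 and 4350 CPM in WT, after 4.27 and 3.44 CPM at day 3. Pmp22 stood at 116 and 360 CPM. Acta2 remained apart with 0.959 and 82.7 CPM, as did Tal1 with 5.14 and 96.2 CPM and Col1a2 with 0.0564 and 188 CPM. The neural progenitor class held 30 of 51 3B126 cells and 20 of 89 WT cells at day 8, all 20 from the plate of 68, and the endothelial class held 2 and 10. The 2 Crabp1 levels of day 8 stood in the opposite order to those of day 6.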

How the data were processed

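Live cells from embryoid bodies went singly into the wells of a plate, and their RNA was made into libraries with a Smart-seq2 variant that has 25 PCR cycles and no molecular identifiers. The deposited values are raw counts of reads, 1 row a gene and 1 column a cell. Per the submitters' processing notes and the methods of the study, the tools were FastQC 0.11.2, Trim Galore 0.5.0, STAR 2.7.1a on mm10 (GRCm38.p6) and featureCounts 1.6.1, which left out multimapping reads, and whose strand setting was not stated. The authors kept cells with at least 50000 reads and 2000 genes and at most 50% mitochondrial reads, and all 965 cells met this.

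Counts were summed per plate and given per 1000000 reads (CPM). All 14 sums were scaled by TMM (edgeR 4.0.16, R 4.3.3), with factors of 0.786 (3B126) and 0.997 (WT). DESeq2 1.42.0 size factors were an alternative. With 1 plate per arm no test was made. Intervals are exact Poisson or exact binomial at 95% and cover counting error only, and PCR copies are not independent molecules. No doublet caller was run on the sorted cells. Classes used cells thinned to 50000 reads. Named genes were the 12 largest differences of each direction past 4-fold that were seen in 15 thinned cells and past 2-fold by the mean over cells, without predicted, Rik and mitochondrial genes, and from each list the 2 to 4 members of highest CPM, besides markers. The members and lists were chosen with earlier results of these data known. Gene positions are those of GENCODE M21 (GRCm38), and upstream sequences are from RefSeq. The scripts were tested on simulated data.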

Additional observations from a re-analysis of the deposited data

Results flagged for a closer look

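The difference between 3B126 and WT stood in opposite directions at days 3 and 6 for 3 of the named genes. Lhx2 differed by -2.48 at day 3 on the log2(CPM + 5) scale (9.04 CPM in 3B126 and 73.1 CPM in WT) and by 3.42 at day 6. Gprasp1 differed by -2.28 at day 3 (19.9 and 116 CPM) and by 2.88 at day 6, and Zfp866 by -3.18 (10.6 and 136 CPM) and 2.83. Each day is 1 plate per clone, and the change between the days was not tested.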

How the results depend on the processing

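No paired analysis was possible because each arm is 1 plate. All 25 genes recomputed under 9 alternatives kept their direction. For the 12 higher and 12 lower named genes the direction by the mean over cells was fixed beforehand, as it was part of the naming rule. These genes were also picked as the largest differences, 2.795 or more and -3.049 or less. Other scaling factors alone could thus not bring them under 4-fold. Apart from a pseudocount of 1, the 12 higher genes stayed past 4-fold in 94 of 96 cases (not Mup6 among cells with at most 30% mitochondrial reads, nor Trim2 by the mean over cells) and the 12 lower genes in 92 of 96. The 4 exceptions, Acta2, Kdr, Krt18 and Krt8, arose among cells in no mesoderm or endoderm class, an alternative chosen after seeing the data that removes cells by related markers. It left 33 lower genes, 18 of them among the 87, and 176 higher ones. The counts of higher genes were 68 with unscaled CPM, 49 with the mean over cells, 82 without mitochondrial genes, 277 with pseudocount 1, 1188 past 2-fold and 265 among cells with at most 30% mitochondrial reads, against 141. Those of lower genes were 182 without mitochondrial genes, 239 with pseudocount 1, 140 without a filter, 652 past 2-fold and 231 among cells with at most 30% mitochondrial reads, against 87. The alternatives without mitochondrial genes and by the mean over cells also left out the TMM scaling. Unscaled CPM by itself gave 68 higher and 113 lower genes, so the part of the mitochondrial genes in 82 and 182 was not separated. Other alternatives gave 112 to 208 higher and 62 to 113 lower genes. With 2 markers, shares were 58.6% (epiblast), 29.3% (neural progenitor) and 86.2% (neuron) in 3B126, and 19.4% (streak), 31.3% (endothelial), 34.3% (mesenchyme), 22.4% (endoderm), 53.7% (neuron) and 58.2% (any mesoderm or endoderm class) in WT. With 4 markers they were 0% (streak), 0% (neural progenitor) and 13.8% (neuron) in 3B126, and 1.49% (streak), 7.46% (neural progenitor) and 5.97% (neuron) in WT. With 2 reads per marker they were 0% (mesenchyme, neural progenitor and any mesoderm or endoderm class) in 3B126, and 7.46% (neuron) and 29.9% (any mesoderm or endoderm class) in WT. The share in any mesoderm or endoderm class was higher in WT under all 4 other marker rules, applied to this sum of classes after seeing the data. The causes were not tested. With 1 plate per arm, no value has an error between plates.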
